A study of Homo sapiens with 6 samples.

Results

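The genes that bring iron into a cell, store it, export it and sense it were compared between K562 cells carrying SF3B1-K700E and K562 cells with wild-type SF3B1 (WT). The set holds 10 genes of the 62111 listed in both deposited tables, chosen by symbol: TFRC, TFR2, FTH1, FTL, SLC11A2, SLC40A1, IREB2, ACO1, NCOA4 and STEAP3. All 10 were matched by gene ID. K562 is a human erythroleukaemic line, derived from a patient with chronic myeloid leukaemia, that can make globin. SF3B1 is a core subunit of the U2 snRNP, which binds the branch point of introns, and K700E is a recurrent substitution in it. There were 3 K700E and 3 WT libraries of this 1 line, and the labels give no treatment, time or further allele. How the substitution was introduced, and whether the K700E libraries come from 1 clone or several, is not given in the sources used here. The labels do not say that replicates were separate cultures, so every p-value measures only the spread between these libraries.

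Iron bound to transferrin enters through the transferrin receptor, is reduced in the endosome and leaves it through a divalent metal transporter. It is then used, mostly for heme in erythroid cells, stored inside ferritin or exported by ferroportin. Iron regulatory proteins (IRPs) couple these steps by binding a hairpin in mRNA, the iron-responsive element (IRE), when iron is scarce. The known effects are opposite: binding in the 3' UTR stabilises TFRC mRNA, whereas binding in the 5' UTR blocks translation of ferritin mRNA. The TFRC side of the switch can therefore show in transcript levels, although these do not separate mRNA stability from transcription. The ferritin side acts mainly at a step that RNA sequencing of total transcripts does not measure.

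The IREs are shown because they are what sets TFRC apart from ferritin in this control. GENCODE 29 transcripts were searched, on the transcript strand, for the classical hairpin, a loop of the bases CAGTG and 1 further base on a stem with a bulged C. All 5 upper pairs and at least 4 of 6 lower pairs were required, counting G-T pairs. Such an element lay in a UTR of 4 of the 10 genes, of 2 of 78 other iron genes described below (both listed for a reported IRE), and of 28 of 19684 protein-coding genes (0.142%). The 29 bases are given for the 4 genes and for ALAS2, in 1 transcript each, with the 6-base loop in capitals.
TFRC element 1, 3' UTR: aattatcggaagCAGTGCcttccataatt
TFRC element 2, 3' UTR: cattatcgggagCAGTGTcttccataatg
TFRC element 3, 3' UTR: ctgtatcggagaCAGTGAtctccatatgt
TFRC element 4, 3' UTR: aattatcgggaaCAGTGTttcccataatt
FTH1, 5' UTR: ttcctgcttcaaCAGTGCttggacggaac
FTL, 5' UTR: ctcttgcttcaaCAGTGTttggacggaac
SLC40A1, 5' UTR: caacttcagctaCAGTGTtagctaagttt
ALAS2, 5' UTR: ttcgttcgtcctCAGTGCagggcaacagg
The FTH1 and FTL elements differed at 3 of 29 positions, and the TFRC elements at 4 to 11 positions from each other. FTH1 differed from the TFRC elements at 18 to 20 positions. ALAS2, which encodes the erythroid enzyme that starts heme synthesis, is the gene through which the same switch reaches heme. A second ALAS2 transcript held an element with the same loop. CDC14A also held an element, in its 3' UTR, tatttacatgtaCAGTGTtacattatata. No match in SLC11A2 or in the other genes says only that these letters were not found in these transcripts. The TFRC elements are likewise only those that match this pattern, and one with another loop or stem would not be listed.

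Levels are given in TPM (reads divided by gene length and scaled to 1000000 in each library). Reads recovered from them came to between 104642332 and 136588117 per library, and between 2872 and 635870 per library for each of the 10 genes, so the spread between libraries and not counting sets the precision. The 15493 genes averaging 1 TPM or more were tested with limma on log2(TPM + 1), and "passed" means a Benjamini-Hochberg adjusted p under 0.05 over all of them. All 10 iron genes met the minimum. Of the 15493 genes 1.38% passed, 1.15% higher and 0.232% lower in K700E, and 16.5% had an unadjusted p under 0.05. WT replicate 3 lay between the other WT libraries in 75.9% of genes, and without it no gene passed in limma (1462 at an unadjusted p under 0.05). SF3B1 was at 118 to 160 TPM in K700E and 98.9 to 144 TPM in WT, and values per gene do not show the substitution. The erythroid markers of K562 were all present, with a summed level of 3429 to 7547 TPM in K700E and 2851 to 5161 TPM in WT. Of the markers of other cells, the 5 lymphoid ones summed to 3.78 to 5.14 TPM in K700E and 4.04 to 4.43 TPM in WT, and the stromal and epithelial ones to 54.8 to 66.0 TPM in K700E and 45.6 to 80.6 TPM in WT, nearly all EPCAM. Of the 5 myeloid ones LYZ was the highest, and their sum was 67.3 to 183.5 TPM in K700E and 118.4 to 137.6 TPM in WT.

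None of the 10 iron genes passed the test in either direction. An unadjusted limma p under 0.05 was found for 2 of the 10, TFRC and FTL, and for 16.5% of all genes tested. With limma-voom on the recovered reads, none of the 10 passed either. Their median log2 difference (K700E minus WT) was 0.01, against 0.13 for all genes tested, and they ran from -0.47 for TFR2 to 0.74 for TFRC. In 3 of the 10 (TFRC, FTL and STEAP3) every K700E library lay above every WT library, and in none did every K700E library lie below. Over all genes tested 24.0% did not overlap, 19.0% with K700E above and 4.99% with K700E below. Median-ratio scaling moved the median gene to -0.04, so differences relative to the median gene of the same fit are given where they matter. Calls over all genes split into 178 higher and 36 lower as deposited (83.2% higher), and into 113 and 51 with that scaling (68.9%).

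**Figure D1:**
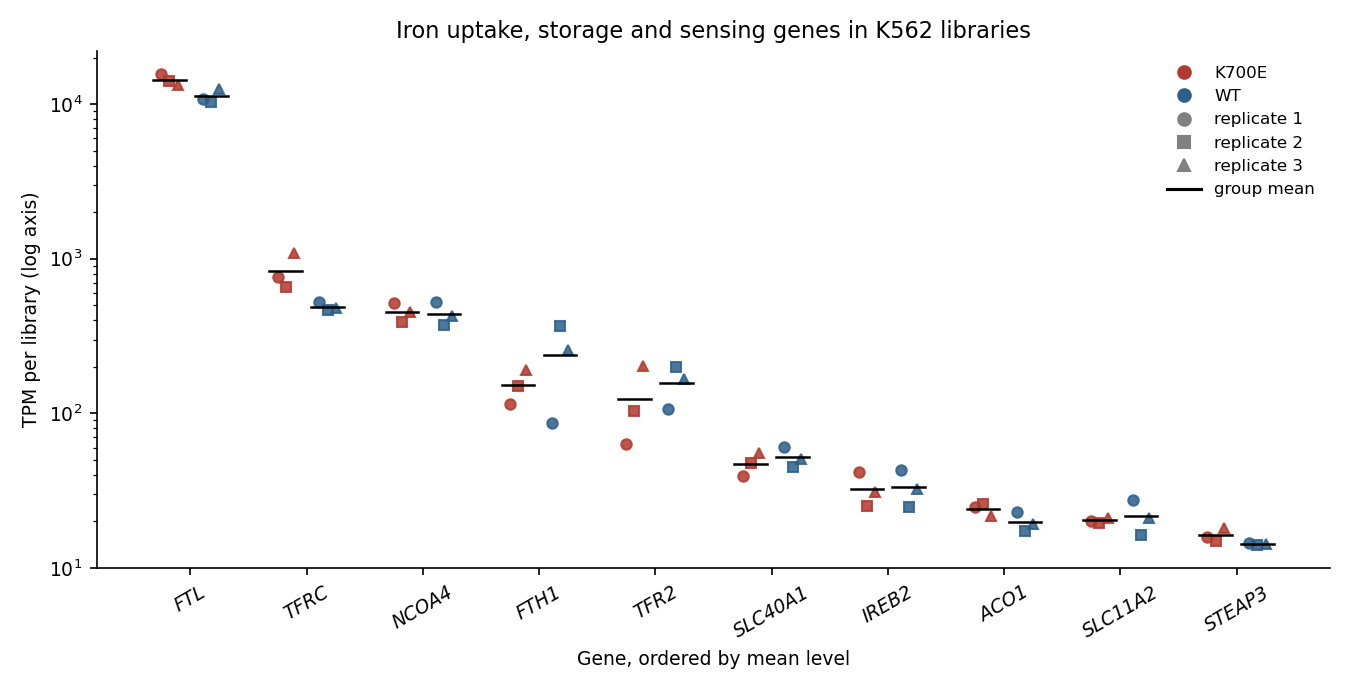
Level of each of the 10 iron genes in TPM (log axis), with K700E libraries in red to the left of WT libraries in blue; the marker shape gives the replicate and the black bar the group mean. FTL stands far above the rest, and TFRC, FTL and STEAP3 are the genes in which the groups do not overlap.

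By level the genes kept nearly the same order in both groups. FTL was highest at 13339 to 15588 TPM in K700E and 10387 to 12606 TPM in WT, and was 8th among all genes tested by mean level. TFRC came next, then NCOA4, whose values did not overlap those of TFRC in K700E but did in WT. FTH1 and TFR2 followed and overlapped each other in both groups. SLC40A1 and IREB2 overlapped in K700E and were apart in WT. ACO1, SLC11A2 and STEAP3 were lowest, and ACO1 and SLC11A2 changed places between the groups, overlapping in WT only. IREB2 overlapped the gene below it in both groups, and STEAP3 did not overlap the gene above it in either. All of these are levels per length, on the TPM scale.

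Uptake begins with TFRC, the transferrin receptor (ENSG00000072274, GRCh37 chromosome 3, 195776155 to 195808965, minus strand). TFRC stood at 766, 659 and 1092 TPM in K700E replicates 1, 2 and 3 and at 528, 466 and 477 TPM in WT replicates 1, 2 and 3. Every K700E value was above every WT value, but the K700E libraries spread 1.66-fold and the WT libraries 1.13-fold. The ratio of means was 1.71. The log2 difference of 0.74 (SE 0.19, 95% interval 0.30 to 1.19) had a limma adjusted p of 0.122 and did not pass. Relative to the median gene the log2 difference was 0.61. In bulk RNA a change in the share of cells that hold a transcript and a change in its amount per cell cannot be told apart. Without K700E replicate 3, the highest library, it was 0.54 (adjusted p 0.182), and without any 1 library it stayed between 0.54 and 0.90. An exact permutation test of 3 libraries against 3 cannot give a two-sided p under 0.1, which was the value for TFRC.

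TFR2, a second transferrin receptor that senses loaded transferrin in liver and erythroid cells, averaged lower in K700E, with wide scatter (ENSG00000106327, chromosome 7, 100218039 to 100240344, minus strand). TFR2 was at 63.3, 104 and 203 TPM in K700E and at 107, 199 and 167 TPM in WT. The highest and the lowest of the 6 values were both K700E libraries, a 3.20-fold spread within that group. The log2 difference was -0.47 (SE 0.42, 95% interval -1.44 to 0.51, limma adjusted p 0.629), and leaving out 1 library moved it widely. It was -0.07 without K700E replicate 1 and -0.28 without WT replicate 2, but -0.90 without K700E replicate 3 and -0.72 without WT replicate 1. The ratio of TFRC to TFR2 within a library was 12.1, 6.37 and 5.39 in K700E and 4.94, 2.34 and 2.86 in WT, so it was higher in every K700E library. That ratio was formed after both levels were known and is a description only.

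Inside the endosome STEAP3 reduces ferric iron and SLC11A2, the divalent metal transporter DMT1, carries it to the cytosol. STEAP3 (ENSG00000115107, chromosome 2, 119981407 to 120023228, plus strand) was at 15.8, 15.0 and 18.1 TPM in K700E and at 14.5, 14.1 and 14.3 TPM in WT. The groups were apart, and the WT values lay within 1.03-fold of each other. The log2 difference of STEAP3 was 0.17 (SE 0.14, 95% interval -0.15 to 0.50, limma adjusted p 0.586), and 0.04 relative to the median gene. With median-ratio scaling the difference of STEAP3 was -0.0012, so its direction depends on the scaling. An antisense gene, STEAP3-AS1, shares 500 of its exon bases but was listed at no more than 0.156 TPM in K700E and 0.160 TPM in WT.

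SLC11A2 (ENSG00000110911, chromosome 12, 51373567 to 51422349, minus strand) was at 20.2, 19.6 and 21.1 TPM in K700E, all inside the WT values of 27.5, 16.4 and 21.1 TPM. The log2 difference was -0.06 (SE 0.20, 95% interval -0.52 to 0.40, limma adjusted p 0.907). SLC11A2 is made as isoforms with and without an IRE, and a value per gene does not separate them. Without WT replicate 1 its log2 difference was 0.12.

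Storage was measured through both ferritin subunits. FTL, the light chain (ENSG00000087086, chromosome 19, 49468566 to 49470136, plus strand), was at 15588, 14123 and 13339 TPM in K700E and at 10722, 10387 and 12606 TPM in WT. All K700E values lay above all WT values, the nearest pair being K700E replicate 3 and WT replicate 3. The ratio of means was 1.28 and the log2 difference 0.35 (SE 0.12, 95% interval 0.07 to 0.64, limma adjusted p 0.213), so FTL did not pass. The log2 difference was 0.23 relative to the median gene, and 0.17 with median-ratio scaling.

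FTH1, the heavy chain with the ferroxidase site (ENSG00000167996, chromosome 11, 61727190 to 61735106, minus strand), was at 115, 151 and 192 TPM in K700E and at 86.8, 368 and 258 TPM in WT. WT replicates 1 and 2 stood 4.23-fold apart, the widest spread within a group among the 10 genes, and every K700E value lay inside the WT range. The log2 difference of -0.43 (SE 0.49, 95% interval -1.58 to 0.72, limma adjusted p 0.712) was within that spread. Without WT replicate 1 it was -1.04 (adjusted p 0.0928) and without WT replicate 2 it was -0.0032 (adjusted p 0.998). In the deposited gene models 916 exon bases of FTH1, 57.6% of its length, are shared with BEST1 on the opposite strand, which was listed at up to 2.91 TPM in K700E and 8.99 TPM in WT. Whether the authors' counting used strand is not given in the sources used here, so the FTH1 level and its place below FTL are uncertain. The ratio of FTL to FTH1 within a library ran from 69.6 to 135 in K700E and from 28.2 to 123 in WT. Pseudogene rows, described next, can also take reads from FTH1, and how far this lowers its level was not tested.

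Ferritin also has many processed pseudogenes, whose rows can take reads from the parent mRNA. The 25 FTH1 pseudogene rows summed to 50.7, 48.0 and 45.8 TPM in K700E and to 64.3, 58.3 and 64.9 TPM in WT. The 16 FTL pseudogene rows summed to 24.0, 23.2 and 24.1 TPM in K700E and to 16.1, 17.7 and 18.9 TPM in WT. The FTH1 sums were lower and the FTL sums higher in every K700E library. The 3 highest rows were FTH1P2, FTLP3 and FTH1P8. FTH1P2 was at 34.3, 31.3 and 32.0 TPM in K700E and 43.5, 40.3 and 43.4 TPM in WT (log2 difference -0.37, SE 0.12, limma adjusted p 0.199). FTLP3 was at 17.8, 14.5 and 16.1 TPM in K700E and 12.2, 12.8 and 14.2 TPM in WT (0.28, SE 0.15, adjusted p 0.394). Of 5 FTH1 rows tested 3 lay below WT without overlap and 0 above, of 2 FTL rows both lay above, and none passed the test (over all genes 4.99% lay below and 19.0% above). How many of these reads come from the parent mRNAs was not tested.

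**Figure D2:**
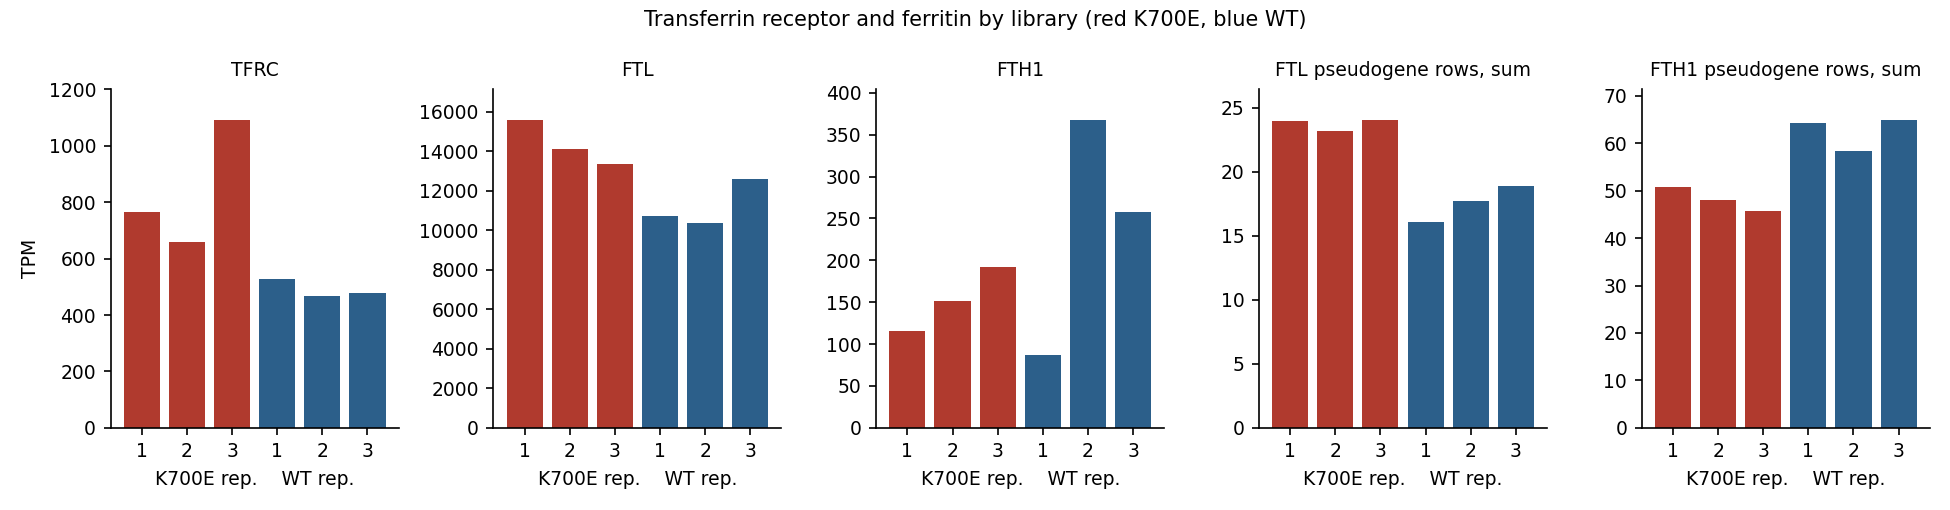
TPM per library (bars from 0; K700E red, WT blue; replicates 1 to 3 in each) for TFRC, FTL, FTH1 and the summed FTL and FTH1 pseudogene rows. FTH1 ranges from 86.8 to 368 TPM within WT, whereas the other panels show groups that do not overlap.

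The opposite effects of IRPs are the reason for giving the ratio of TFRC to ferritin. The effect on ferritin acts mainly on translation, so a ratio of transcripts does not measure it. Within a library there were 49.2, 46.7 and 81.9 TFRC transcripts per 1000 FTL transcripts in K700E and 49.3, 44.9 and 37.9 in WT, by TPM. The values overlapped, with WT replicate 1 above K700E replicates 1 and 2, since TFRC and FTL were both higher in K700E. The ratio of TFRC to FTH1 was 6.64, 4.37 and 5.70 in K700E and 6.09, 1.27 and 1.85 in WT, and it overlapped through WT replicate 1. That ratio carries the uncertainty in the FTH1 level described above.

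NCOA4, the receptor that carries ferritin to the lysosome, overlapped between the groups (ENSG00000266412, chromosome 10, 51565108 to 51590734, plus strand). NCOA4 was at 515, 392 and 452 TPM in K700E and at 523, 371 and 425 TPM in WT. The log2 difference was 0.05 (SE 0.17, 95% interval -0.34 to 0.44, limma adjusted p 0.912), and -0.13 with median-ratio scaling. The interval leaves both a lower and a higher level in K700E possible.

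Export was measured through SLC40A1, ferroportin (ENSG00000138449, chromosome 2, 190425316 to 190445512, minus strand). SLC40A1 was at 39.5, 47.6 and 55.1 TPM in K700E and at 60.7, 45.3 and 51.0 TPM in WT. The groups overlapped and the log2 difference was -0.14 (SE 0.17, 95% interval -0.55 to 0.27, limma adjusted p 0.735). It was -0.32 with median-ratio scaling and -0.28 after GC correction. Without 1 library it ran from -0.0212 (K700E replicate 1 left out) to -0.26 (K700E replicate 3 left out), and was -0.0325 without WT replicate 1 and -0.24 without WT replicate 2. The ratio of SLC40A1 to SLC11A2 was 1.96 to 2.61 in K700E and 2.21 to 2.76 in WT.

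Sensing rests on IREB2 and ACO1. IREB2 encodes IRP2, which is degraded when iron is plentiful, and ACO1 encodes IRP1, which becomes cytosolic aconitase once it carries an iron-sulfur cluster. IREB2 (ENSG00000136381, chromosome 15, 78730558 to 78793795, plus strand) was at 41.8, 25.04 and 30.8 TPM in K700E and at 42.7, 24.9 and 32.4 TPM in WT. Its log2 difference was -0.03 (SE 0.25, 95% interval -0.62 to 0.55, limma adjusted p 0.965), turning to 0.16 without WT replicate 1 and to 0.14 without K700E replicate 2. ACO1 (ENSG00000122729, chromosome 9, 32384601 to 32454767, plus strand) was at 24.6, 26.0 and 21.8 TPM in K700E and at 23.2, 17.3 and 19.4 TPM in WT. K700E replicate 3 lay below WT replicate 1, so the groups overlapped, and the log2 difference was 0.27 (SE 0.16, 95% interval -0.10 to 0.64, limma adjusted p 0.450). For ACO1 it was 0.0926 with median-ratio scaling, 0.12 after GC correction and 0.18 without WT replicate 2. IREB2 exceeded ACO1 in 5 of the 6 libraries, with a ratio of 1.70, 0.964 and 1.41 in K700E and 1.84, 1.44 and 1.67 in WT. Both IRPs are regulated largely as proteins, which these libraries do not measure.

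**Figure D3:**
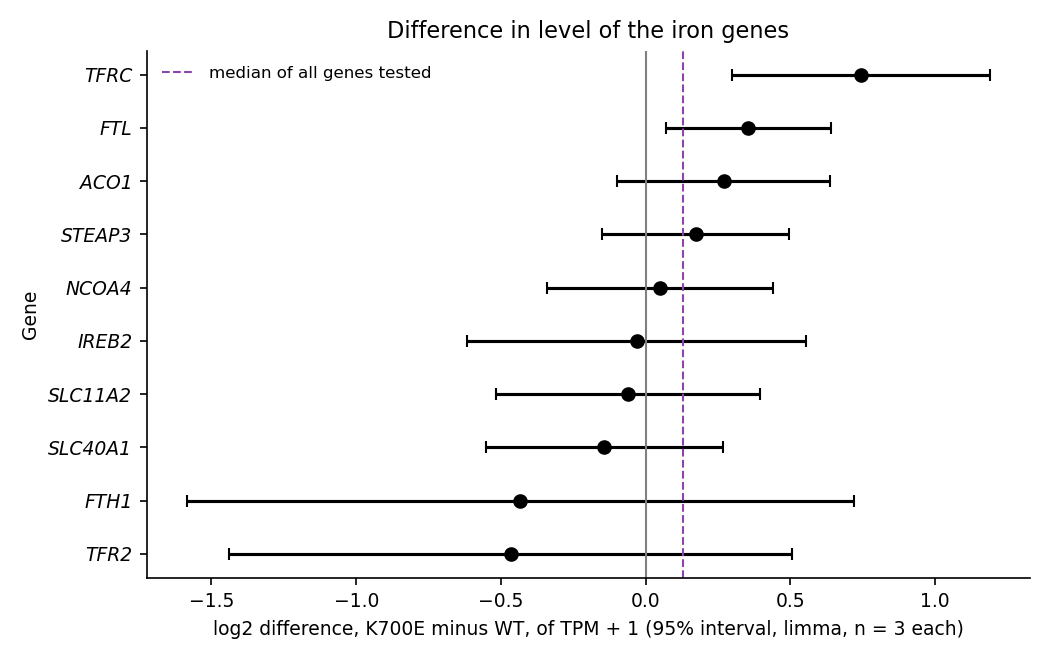
log2 difference (K700E minus WT, on TPM + 1) of each of the 10 genes with its 95% interval from limma, n = 3 libraries a group; the dashed line is the median of all genes tested, 0.13. The intervals of TFRC and FTL lie above 0, but that of FTL (0.07 to 0.64) includes the dashed line. Those of FTH1 and TFR2 are the widest.

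The libraries differed in how they covered genes of high and of low GC content. TFR2 is GC-rich (62.0% GC in its longest annotated transcript) and IREB2 is GC-poor (38.3%). Whether GC coverage set the spread of either gene, or that of FTH1, was not tested. For genes of 60% GC or more, the median log2 deviation from the mean of the 6 libraries was -0.07, -0.03 and 0.23 in K700E and -0.55, 0.30 and 0.13 in WT. For genes under 40% it was 0.20, 0.09 and -0.08 in K700E and 0.23, -0.34 and -0.09 in WT. TFR2 deviated by -1.02, -0.32 and 0.64 in K700E and by -0.27, 0.61 and 0.36 in WT. IREB2 deviated by 0.37, -0.35 and -0.06 in K700E and by 0.40, -0.36 and 0.01 in WT. FTH1, at 50.1% GC, deviated by -0.59, -0.20 and 0.14 in K700E and by -0.99, 1.08 and 0.57 in WT, where genes of 50 to 55% GC had medians between -0.12 and 0.11. After a correction on GC content none of the 10 genes passed. The log2 difference was then -0.57 for TFR2, -0.17 for IREB2, -0.59 for FTH1, 0.61 for TFRC (limma adjusted p 0.166) and 0.20 for FTL (adjusted p 0.512).

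**Figure D4:**
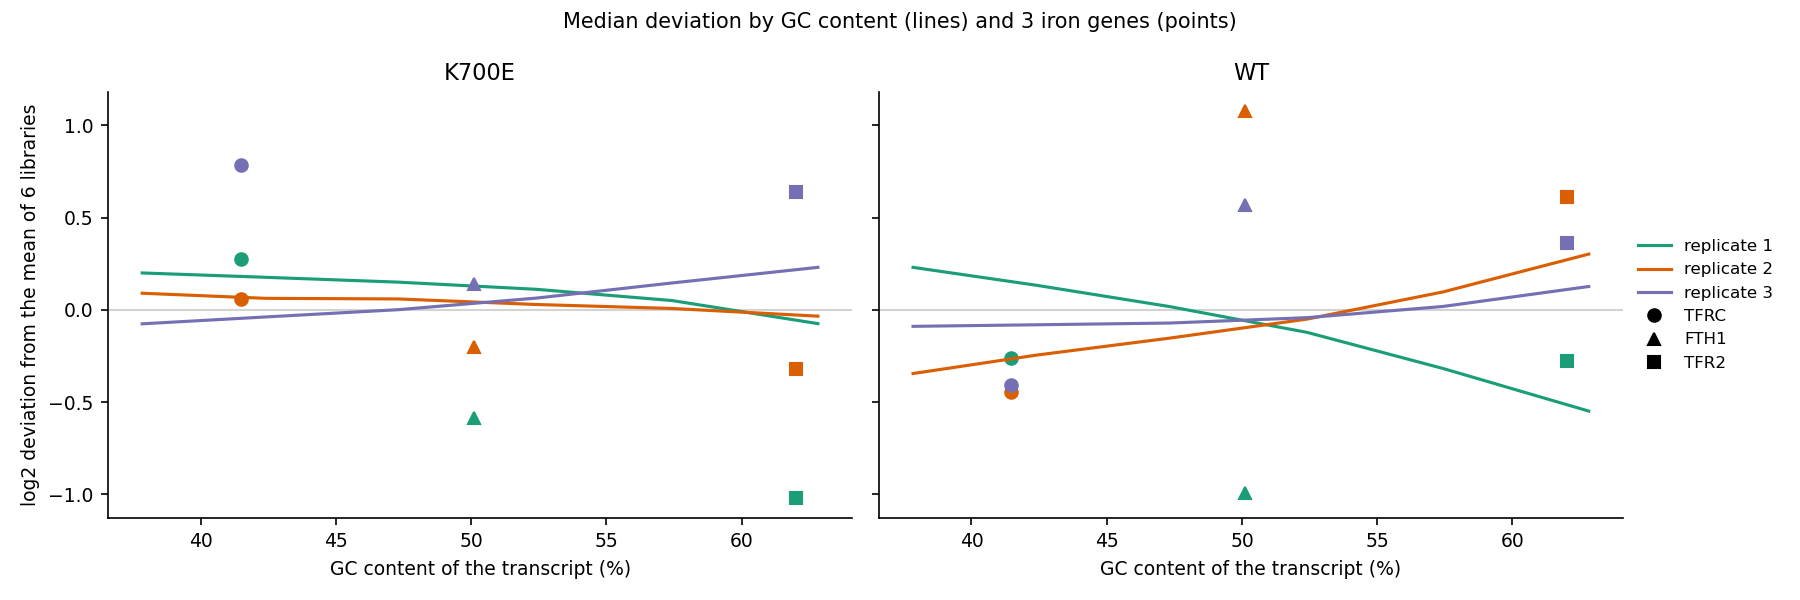
Median log2 deviation of each library from the mean of 6 libraries against the GC content of the transcript (lines), with TFRC, FTH1 and TFR2 as points; K700E left, WT right, colours give the replicate. In WT replicate 1 the line falls to -0.55 for the most GC-rich genes, and the WT points of FTH1 lie far off the lines. The lines are medians and do not show the spread of genes around them.

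Among 11340 other protein-coding genes tested, those whose pattern over the 6 libraries was most like that of TFRC were GLG1, RABL2A and CTSZ, with Pearson correlations of 0.986, 0.985 and 0.985 on log2(TPM + 1). CTSZ was at 350, 323 and 465 TPM in K700E and 274, 275 and 277 TPM in WT. For FTH1 the first 2 were TMEM120A and CFD, with correlations of 0.9996 and 0.999. TMEM120A was at 29.8, 33.0 and 36.0 TPM in K700E and 27.0, 46.3 and 39.9 TPM in WT. The FTH1 pattern was shared more widely, with 337 genes correlating above 0.95 against 27 for TFRC. Each correlation is over 6 points, which hold both genotypes, and every gene is read from the same 6 libraries, so these likenesses are descriptions.

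Beyond the 10 genes, 78 other genes of iron handling are reported in 7 groups, and 66 of them reached the level tested. None of the 66 passed in limma in either direction. An unadjusted limma p under 0.05 was found for 13 of the 66, and for 16.5% of all genes tested. With limma-voom on the recovered reads none of the 66 passed either. BMP6, a ligand upstream of hepcidin, passed there but averaged too little to be among the 66, at 0.846, 0.710 and 0.622 TPM in K700E and 0.170, 0.247 and 0.274 TPM in WT. Their median log2 difference was 0.11, against 0.13 for all genes tested, and 11 of the 66 (16.7%) did not overlap between the groups, against 24.0% of all genes.

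In the list of mitochondrial iron and iron-sulfur clusters 14 of 15 genes were tested and none passed, with a median log2 difference of 0.06. FDX1, a ferredoxin, was at 15.8, 12.7 and 12.3 TPM in K700E and 10.7, 8.26 and 8.40 TPM in WT, with every K700E value above every WT value (log2 difference 0.53, SE 0.17, limma adjusted p 0.188). SLC25A37, the mitochondrial iron importer mitoferrin 1, was at 199, 328 and 359 TPM in K700E and 205, 150 and 207 TPM in WT (0.62, SE 0.25, 0.266), with K700E replicate 1 inside the WT range. NFS1, the cysteine desulfurase that supplies the sulfur, was at 19.0, 19.5 and 16.2 TPM in K700E and 16.9, 11.6 and 13.9 TPM in WT (0.35, SE 0.17, 0.367), and the groups overlapped.

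Genes with a reported IRE besides the 10 had a median log2 difference of 0.30 over 5 genes, none past the threshold. ALAS2, whose 5' UTR element is shown above, was at 1188, 971 and 1363 TPM in K700E and 717, 753 and 773 TPM in WT. All K700E values were above all WT values (log2 difference 0.64, SE 0.14, limma adjusted p 0.0923). Like TFRC and FTL, ALAS2 stood higher in every K700E library without passing. FTH1, SLC40A1 and CDC14A, in which an element was also found, overlapped between the groups. Over all genes tested 19.0% had every K700E library above every WT library. EPAS1, which encodes HIF-2 alpha, was at 50.4, 41.91 and 48.4 TPM in K700E and 18.5, 41.87 and 28.8 TPM in WT (0.71, SE 0.27, adjusted p 0.256). EPAS1, in which the search found no element, also had every K700E value above every WT value. Replicate 2 of each group was the nearest pair. CDC14A was at 17.1, 16.8 and 13.7 TPM in K700E and 15.4, 10.5 and 12.5 TPM in WT (0.30, SE 0.18, adjusted p 0.465).

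In the list of uptake and the transferrin cycle 12 of 15 genes were tested and none passed, with a median log2 difference of 0.21. HFE, which binds TFRC and is mutated in hereditary haemochromatosis, was at 1.51, 1.41 and 1.94 TPM in K700E and 0.421, 0.811 and 0.593 TPM in WT (log2 difference 0.71, SE 0.16, limma adjusted p 0.0985). STEAP1, a relative of STEAP3, was at 4.22, 2.19 and 1.01 TPM in K700E and 0.529, 0.426 and 0.453 TPM in WT (1.13, SE 0.32, 0.146). SLC22A17, a receptor for the siderophore carrier lipocalin 2, was at 12.3, 6.83 and 13.4 TPM in K700E and 4.30, 6.67 and 7.10 TPM in WT (0.73, SE 0.28, 0.254). HFE and STEAP1 did not overlap between the groups but averaged 0.608 and 0.469 TPM in WT, under the minimum of 1 TPM. Both were tested only because of their K700E levels. The filter thus favoured a higher K700E level, and their separation is a description only. The pseudocount also shrinks a difference at such low levels.

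Of 9 genes of export and systemic control 6 were tested and none passed, with a median of 0.03. HJV, the hemojuvelin co-receptor, was at 13.7, 6.31 and 10.6 TPM in K700E and 16.3, 17.4 and 17.5 TPM in WT (log2 difference -0.75, SE 0.25, limma adjusted p 0.208). HAMP, which encodes hepcidin, was at 0.790, 0.481 and 0.640 TPM in K700E and 0.848, 2.097 and 1.69 TPM in WT (-0.61, SE 0.22, 0.229). HAMP averaged 0.637 TPM in K700E and was tested only because of its WT level, so its difference is a description only. HEPH, the ferroxidase hephaestin that works beside ferroportin, was at 150, 218 and 262 TPM in K700E and 152, 131 and 140 TPM in WT (0.54, SE 0.21, 0.258).

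Of 14 iron chaperones and regulators of ferritin turnover and of the IRPs 13 were tested and none passed, with a median of 0.06. PCBP2, a chaperone that delivers iron, was at 135, 138 and 132 TPM in K700E and 174, 159 and 157 TPM in WT (log2 difference -0.27, SE 0.11, limma adjusted p 0.287). ZFP36, an mRNA decay factor, had 20.1, 16.3 and 21.7 TPM in K700E and 11.0, 18.4 and 15.3 TPM in WT (adjusted p 0.437). SKP1, a subunit of the ligase that removes IRP2, had 48.1, 43.6 and 41.7 TPM in K700E and 44.4, 30.7 and 36.1 TPM in WT (adjusted p 0.467).

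Cytosolic iron-sulfur assembly, which depends on the mitochondrial pathway, had 10 of 11 genes tested and none past the threshold (median 0.07). CIAO1, a subunit of the targeting complex, was at 76.7, 72.6 and 67.8 TPM in K700E and 51.8, 58.3 and 56.3 TPM in WT (log2 difference 0.38, SE 0.12, limma adjusted p 0.196). CIAPIN1 had 145, 121 and 118 TPM in K700E and 106, 108 and 104 TPM in WT (adjusted p 0.360). GLRX3 had 71.9, 66.4 and 55.6 TPM in K700E and 62.5, 47.4 and 50.9 TPM in WT (adjusted p 0.463). BOLA2 was listed near 0 and has a near-identical copy that can take its reads. Of 9 genes of heme uptake, export and breakdown 6 were tested and none passed (median -0.03). HMOX2, the constitutive heme oxygenase, was at 41.5, 38.2 and 39.9 TPM in K700E and 26.9, 33.5 and 29.6 TPM in WT (0.40, SE 0.14, 0.207). BLVRA and FLVCR1 overlapped between the groups, with limma adjusted p of 0.465 and 0.483.

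**Figure D5:**
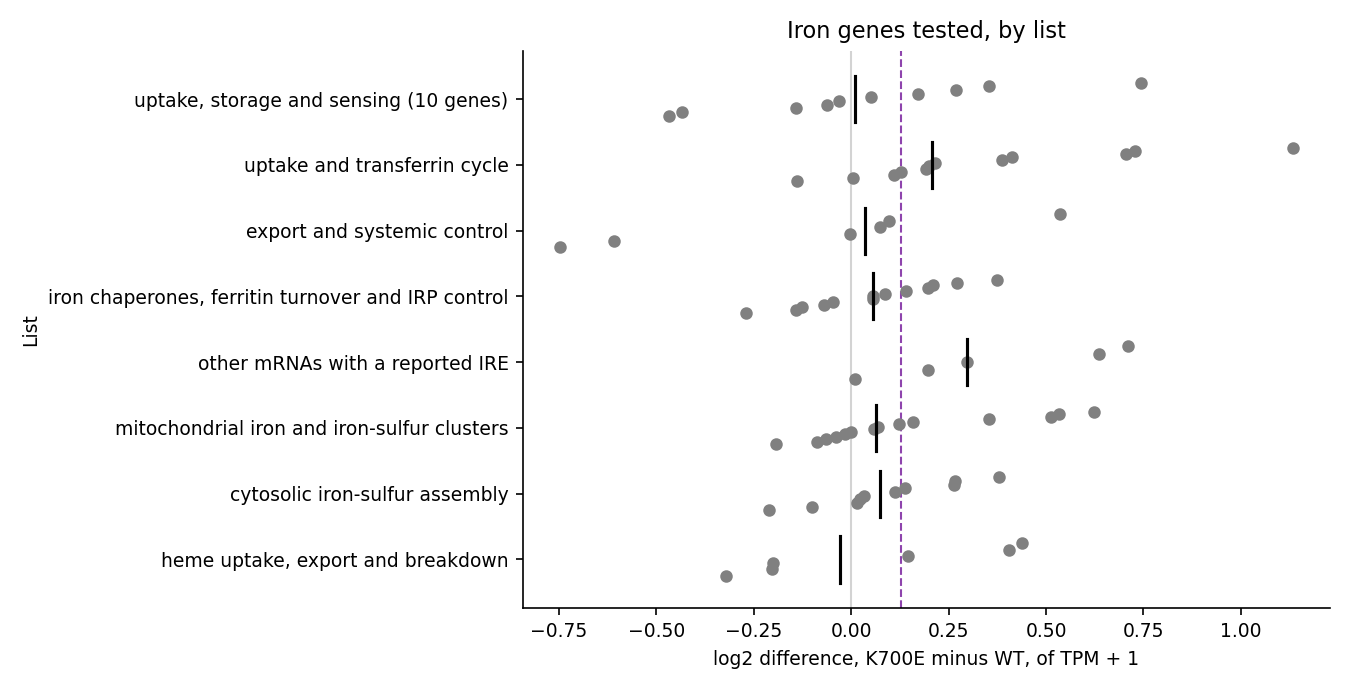
log2 difference (K700E minus WT, on TPM + 1) of each iron gene reported and tested (grey points), by list; black bars are list medians and the dashed line the median of all genes tested. The points run from -0.75 for HJV to 1.13 for STEAP1, and none passed the test. STEAP1, HFE and HAMP reached the minimum level only through the group in which they are higher.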

How the data were processed

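RNA was extracted from K562 cells with magnetic beads and made into mRNA libraries, per the labels' protocols. The authors deposited TPM values per gene, 1 table per genotype. GRCh37 (hg19), featureCounts 2.0.1, TopHat2 2.1, cutadapt and DESeq2 are named in the submitters' processing notes. The WT header has the featureCounts layout and STAR-style column names, so the aligner is not settled, and if the tables were aligned differently, that cannot be told apart from genotype. Coordinates are those of the deposited table; GENCODE 29 (GRCh38) was joined by gene ID only.

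In both tables TPM times the WT table's gene length gave whole multiples of 1 step per library for 100% of genes above 0 (tolerance 0.01), so each library was scaled alone with the same lengths, and testing across the tables was possible. limma 3.58.1 (R 4.3.3) used empirical Bayes with a trend, genotype only, pseudocount 1; GC content came from the longest transcript. Figures and joins used Python 3.11.15 and pandas 2.3.3. The fit was also run on simulated counts with the same spread setting for all genes and no GC-linked differences between libraries. That run does not show how the fit behaves on these libraries. The members and lists were chosen with earlier results of these data known. Named besides the members are, per list, genes that passed or the 3 with the smallest adjusted p, the 3 highest ferritin pseudogene rows and the genes most like TFRC (3) and FTH1 (2). A few genes that these rules cover are not reported here and are left out of the lists' counts; the fit and its adjustment include them.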

Additional observations from a re-analysis of the deposited data

How the results depend on the processing

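None of the 10 iron genes passed under any of the 16 other settings tried. These changed the pseudocount (0.1 or 5) and the filter (none, or 5 TPM), or used median-ratio scaling, limma without the trend, limma-voom on recovered reads, protein-coding nuclear genes alone, the replicate number as a block, leaving out each library, and a GC correction chosen after seeing the data. Over all genes the count that passed, 214 as designed, was 0 with no filter (4891 at an unadjusted p under 0.05), 92 with a minimum of 5 TPM, 381 with limma-voom, 489 with GC correction (268 higher, 221 lower) and 67 with the replicate block. Leaving out 1 library gave counts of 0 (WT replicate 3) to 182 (WT replicate 1). Of the other iron genes reported 0 passed as designed, 1 with limma-voom (BMP6, under the level tested as designed), 1 with GC correction (PCBP2), and 0 under each other setting, leaving out any 1 library included. The labels do not say whether replicate numbers pair the libraries. Same-numbered libraries deviated together with correlations of 0.28, -0.19 and 0.30, and not every library correlated best with its own number. Such correlations over all genes also carry the differences in GC coverage, so they cannot decide whether libraries were paired. Directions turned in 4 genes whose differences were near 0. NCOA4 was -0.13 with median-ratio scaling and -0.0857 with GC correction, and STEAP3 was -0.0012 with median-ratio scaling. Without 1 library NCOA4 ran from -0.0653 (WT replicate 2 left out; -0.0468 for K700E replicate 1) to 0.18, IREB2 from -0.22 to 0.16 and SLC11A2 from -0.24 to 0.12. Each of the 10 genes had at least 2872 recovered reads in every library.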
